A study of Mus musculus with 6 samples.

Results

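Mediator is the large complex that carries signals from DNA-bound transcription factors to RNA polymerase II. Its transcripts were followed here in mouse embryonic stem cells after knockdown of p/CIP. Members were all genes whose symbol is Med followed by a number, with or without a final l, plus Cdk8, Cdk19 and Ccnc, and the brightest probe set stood for a gene with more than 1. This gave 33 of the 19938 genes measured. The cells were of the E14 embryonic stem cell line, and total RNA was hybridised to 6 expression arrays. Control cells received a pool of siRNAs with no specific target (2 arrays). The other groups received siRNA 1 against p/CIP (2 arrays) or siRNA 2 against p/CIP (2 arrays). The labels name no other treatment in any of the 3 groups, and no siRNA sequence, dose or time after transfection was used here.

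Deposited values were log2 expression values, and every change below is a log2 difference of group means. All 12 stem cell markers examined, Pou5f1, Sox2 and Nanog among them, lay above the median gene level of 7.81. p/CIP, a coactivator of nuclear receptors, is the product of Ncoa3. Its control readings were 12.33 and 12.28. Those after siRNA 1 were 10.71 and 10.93, and those after siRNA 2 were 10.71 and 10.92. It fell by 1.49 over both siRNAs (standard error 0.0964, limma adjusted p = 0.0287). Against control the limma adjusted p was 0.0452 for siRNA 1 alone and 0.0742 for siRNA 2 alone, or 0.048 for siRNA 2 with the replicate number as a block. Over the alternatives tried, the change over both siRNAs ran from -1.54 to -1.43 and its adjusted p from 0.000564 to 0.62. The call was lost when any 1 control or siRNA 2 array was left out, with the array code as a block, with all probe sets tested and without moderated variance. In bulk RNA, fewer cells of a type and less RNA per cell cannot be told apart. The second siRNA 1 array stood apart, with an interquartile range of 3.13 over all genes against 3.33 to 3.45 on the others. Whether the 2 arrays of a group stem from separate cultures is not in the labels. The p-values therefore cover only how far these samples spread, and that spread may be technical.

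As background, Mediator is built of a head, a middle and a tail joined along the scaffold subunit Med14. The head and middle contact RNA polymerase II and the initiation factors, and the tail receives most activators. Med1 carries the motifs through which ligand-bound nuclear receptors, the same class of factor that p/CIP serves, dock on the complex. A separable kinase module, made of Cdk8 or Cdk19 with cyclin C (Ccnc), Med12 and Med13 or their paralogues, binds the core reversibly. In embryonic stem cells Mediator and cohesin occupy the enhancers and promoters of active pluripotency genes.

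All 33 subunits lay above the median gene level, with means over the 6 arrays from 8.04 to 11.70. Over both siRNAs against control, 0 of the 33 passed an adjusted p of 0.05 in limma, where 0.0702% of all genes did. With the replicate number as a block the count was again 0, where 0.341% of all genes passed. At an unadjusted p under 0.05, 6 members were found (18.2%), against 8.72% of all genes. Of these, 5 were lower (Med1, Med15, Med21, Cdk8 and Ccnc), as 4.86% of all genes were at this p. Med12 alone was higher, as 3.86% of all genes were. The 4 knockdown arrays did not overlap the 2 control arrays for 9 members (27.3%), against 18.9% of all genes. For 8 members the knockdown arrays were the lower ones, against 10.1% of all genes, and for 1 the higher ones, against 8.83%. Of the 33 members, 24 (72.7%) had a mean below control, against 47.7% of all genes. The median change of the members was -0.06 and that of all genes 0.01. These shares and medians of all genes cover genes of any level and were not matched to the level of the members.

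The single changes were small and ran from -0.44 (Med21) to 0.28 (Med12). The 95% intervals of the members reached from -0.68, a 1.6-fold lower level, to 0.46, a 1.38-fold higher level, and 6 of them excluded 0. The module medians were -0.07 for the 7 head members, -0.04 for the 8 middle members, -0.06 for the 9 tail members and -0.07 for the 7 kinase module members. The kinase median depended on which members were counted, at -0.19 without the paralogues Med12l and Med13l (5 members), a split chosen after the values were seen. It was -0.02 without control replicate 1 and -0.13 without control replicate 2. Med14 was at -0.05 and Med1 at -0.18. The median of all 33 members was -0.02 after quantile normalization and -0.03 after cyclic loess normalization. It was -0.01 without control replicate 1 and -0.10 without control replicate 2.

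**Figure D1:**
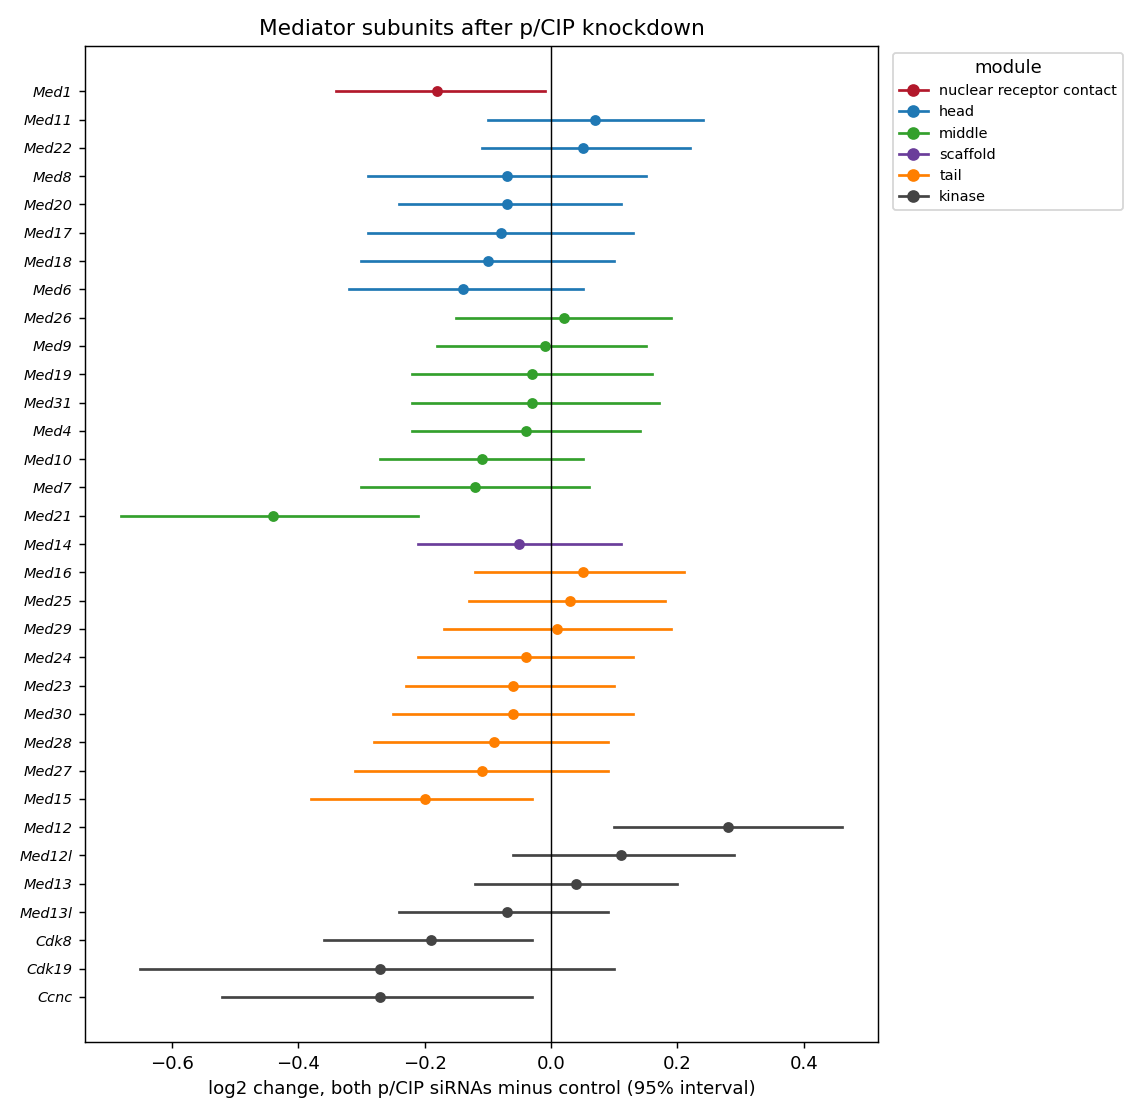
Log2 change of each of the 33 Mediator subunits, mean of both p/CIP siRNAs minus control (x axis), with subunits on the y axis grouped by module. Points are estimates from 6 arrays and lines their 95% intervals. Med21 lies lowest at -0.44 and Med12 highest at 0.28, and most intervals cross 0.

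Of the 6 subunits with an unadjusted p under 0.05, 5 have a single promoter in the RefSeq table (build GRCm38.p6). The 250 bases before each of these starts are shown so that the 5 can be read side by side. Med15 has 2 starts there and is not shown. Capitals mark a CCAAT box (CCAAT, or ATTGG on the other strand) or the core of an ETS factor site (CCGGAA, or TTCCGG on the other strand).
Med1: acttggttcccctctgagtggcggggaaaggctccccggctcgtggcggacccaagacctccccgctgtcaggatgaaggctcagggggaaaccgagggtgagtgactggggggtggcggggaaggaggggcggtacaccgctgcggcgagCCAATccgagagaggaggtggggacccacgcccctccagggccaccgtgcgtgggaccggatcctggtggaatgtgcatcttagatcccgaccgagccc
Med12: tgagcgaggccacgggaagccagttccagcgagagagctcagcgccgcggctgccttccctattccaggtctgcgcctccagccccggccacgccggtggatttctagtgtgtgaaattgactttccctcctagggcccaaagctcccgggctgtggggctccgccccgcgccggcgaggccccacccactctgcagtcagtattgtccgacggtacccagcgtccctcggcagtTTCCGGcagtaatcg
Cdk8: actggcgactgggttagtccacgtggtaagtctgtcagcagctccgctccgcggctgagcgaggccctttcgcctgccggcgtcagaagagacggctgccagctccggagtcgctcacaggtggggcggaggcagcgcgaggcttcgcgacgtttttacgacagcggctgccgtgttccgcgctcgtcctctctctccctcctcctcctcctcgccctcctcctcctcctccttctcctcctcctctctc
Ccnc: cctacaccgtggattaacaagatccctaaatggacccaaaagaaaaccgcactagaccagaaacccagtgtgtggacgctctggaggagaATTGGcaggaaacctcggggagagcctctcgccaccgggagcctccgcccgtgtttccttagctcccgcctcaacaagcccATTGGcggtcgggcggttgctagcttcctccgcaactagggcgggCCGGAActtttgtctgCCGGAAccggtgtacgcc
Med21: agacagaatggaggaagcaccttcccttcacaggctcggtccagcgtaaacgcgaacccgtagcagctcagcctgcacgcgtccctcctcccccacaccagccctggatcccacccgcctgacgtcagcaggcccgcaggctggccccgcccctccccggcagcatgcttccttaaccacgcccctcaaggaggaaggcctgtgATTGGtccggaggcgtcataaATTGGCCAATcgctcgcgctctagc
The windows lie at chr11:98192907-98193156 on the minus strand for Med1 and, on the plus strand, at chrX:101273841-101274090 for Med12, chr5:146231000-146231249 for Cdk8, chr4:21727451-21727700 for Ccnc and chr6:146642329-146642578 for Med21. All are rich in G and C, from 59.6% in Ccnc to 68% in Med1. The Med21 window holds 3 CCAAT boxes and Ccnc 2 CCAAT boxes with 2 ETS cores, while Cdk8 holds neither. Each of the 5 windows has at least 1 GC box (GGGCGG on either strand, not capitalised). None of the 5 holds AAGGTCA, an extended half-site of estrogen-related receptors, on either strand.

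A window was found for 28 of the 33 members. Cdk19, Med8, Med23, Med24 and Med30 have none in the table. The ETS core was present for 10 of the 28 (35.7%), against 13.6% of the 27025 genes in the table. A GC box was present for 19 (67.9%), against 35.4% of genes, and a CCAAT box for 11 (39.3%), against 37.5%. AAGGTCA was found for 1 member, Med27 (3.57%), against 4.7% of genes. The comparison genes were all those in the table, whatever their level, while all 33 members lay above the median gene level. No set matched for level was used. These are matches of letters in a fixed window and say nothing about binding.

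Med1, the nuclear receptor contact, had control readings of 11.19 and 11.28. It read 11.05 and 11.02 after siRNA 1, and 11.06 and 11.11 after siRNA 2. All 4 knockdown arrays lay below both control arrays. The change was -0.18, or 1.13-fold lower (standard error 0.0686, 95% interval -0.34 to -0.01), and it did not pass (limma adjusted p = 0.544). The exact permutation test of the 4 knockdown against the 2 control arrays gave a two-sided p of 0.133, the smallest this design allows. Med1 changed by -0.20 with siRNA 1 and -0.15 with siRNA 2, and the difference between the siRNAs was 0.05 (95% interval -0.14 to 0.24). By size of change Med1 had rank 7 among the 33 members. Set against the other modules within each array, as a difference of changes, Med1 lay below the module median on all 4 knockdown arrays for every module. The mean gap was -0.10 for the head and the middle, -0.13 for Med14 and the tail, and -0.14 for the kinase module. It was uneven between arrays. On siRNA 2 replicate 2 it was only -0.01 for the head and -0.03 for the middle, the tail and the kinase module, against -0.15 for Med14. On the control arrays, whose gaps centre on 0, the gap was -0.11 and 0.11 for the head, -0.09 and 0.09 for the middle and the tail, -0.06 and 0.06 for the kinase module, and -0.01 and 0.01 for Med14. These were about as wide as the knockdown mean for the head and the middle, and narrower for the tail, the kinase module and Med14. The difference in gap was not tested.

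The kinase module ran from -0.27 (Cdk19 and Ccnc) to 0.28 (Med12), the highest change of any member. Med12, which activates the kinase through cyclin C, read 9.34 and 9.40 in control, 9.55 and 9.68 with siRNA 1, and 9.64 and 9.73 with siRNA 2. Every knockdown array was above both controls. The change was 0.28, or 1.22-fold higher (standard error 0.0758, 95% interval 0.10 to 0.46), with a limma adjusted p of 0.339. It was the only one of the 9 members with separated arrays that was higher.

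Cdk8, the cyclin-dependent kinase of the module, read 11.38 and 11.35 in control, 11.18 and 11.11 with siRNA 1, and 11.25 and 11.15 with siRNA 2. All 4 knockdown arrays lay below both controls, with a change of -0.19 (standard error 0.0705, limma adjusted p = 0.513). The change of Med12 exceeded that of Cdk8 on each knockdown array, by 0.37 and 0.58 with siRNA 1 and by 0.38 and 0.58 with siRNA 2. Cdk19, the paralogue of Cdk8, read 9.24 and 9.10 in control, 9.19 and 8.59 with siRNA 1, and 8.93 and 8.86 with siRNA 2. Its siRNA 1 arrays lay far apart and overlapped control, and its change of -0.27 had the widest interval of these subunits, from -0.65 to 0.10 (limma adjusted p = 0.663). Leaving out siRNA 1 replicate 1 gave -0.42, and leaving out siRNA 1 replicate 2 gave -0.12.

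Ccnc, the cyclin that pairs with either kinase, read 10.76 and 10.55 in control, 10.31 and 10.04 with siRNA 1, and 10.62 and 10.56 with siRNA 2. The siRNA 1 arrays were below both controls, while the siRNA 2 arrays lay between them. The change was -0.48 with siRNA 1 (standard error 0.118, limma adjusted p = 0.226) and -0.07 with siRNA 2 (limma adjusted p = 0.999). The difference between the siRNAs was 0.41 (95% interval 0.13 to 0.69, limma adjusted p = 0.607). Without siRNA 1 replicate 2 the siRNA 1 change was -0.35.

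Med13, which tethers the kinase module to the core, was at 0.04 (limma adjusted p = 0.881). Its paralogue Med13l was at -0.07 (limma adjusted p = 0.774), and Med12l, the paralogue of Med12, at 0.11 (limma adjusted p = 0.685). Med12l was the dimmest member, at 7.98 and 7.95 in control, 8.10 and 8.18 with siRNA 1, and 7.95 and 8.08 with siRNA 2. Its siRNA 1 arrays were above both controls, while its siRNA 2 arrays overlapped control. Of the 7 kinase module members, 4 were below control and 3 above.

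**Figure D2:**
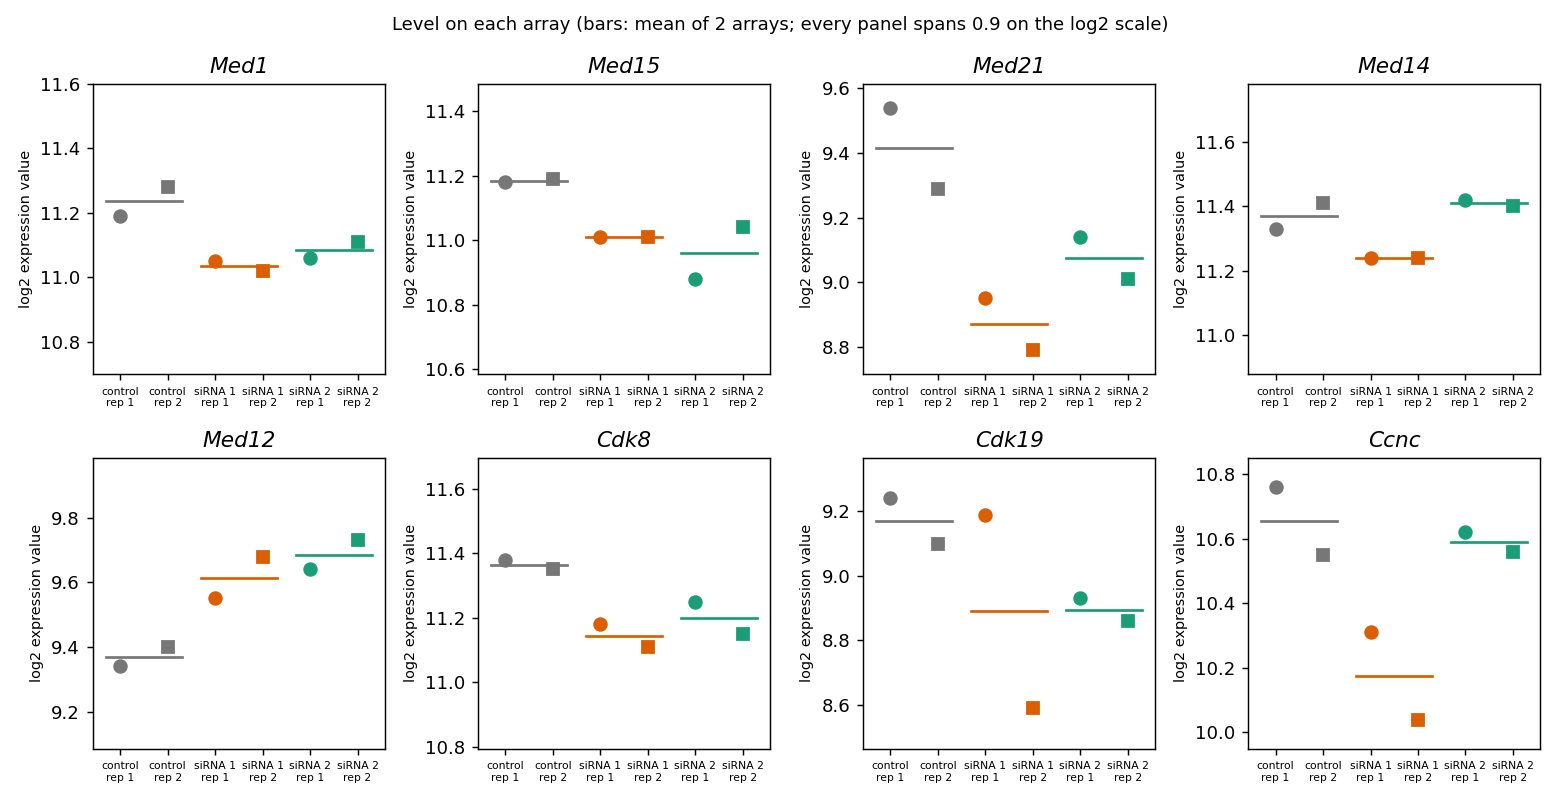
Log2 expression value (y axis, each panel spanning 0.9) of 8 Mediator subunits on each of the 6 arrays (x axis); points are arrays and bars the mean of the 2 arrays of a group. Med1, Med15, Med21 and Cdk8 are lower and Med12 higher on all 4 knockdown arrays than on both control arrays, while Ccnc is below control with siRNA 1 and between the controls with siRNA 2.

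In the middle, Med21, a subunit that pairs with Med7 in a conserved hinge, had the largest change of all members. It read 9.54 and 9.29 in control, 8.95 and 8.79 with siRNA 1, and 9.14 and 9.01 with siRNA 2. The knockdown arrays were all below both controls. The change over both siRNAs was -0.44, or 1.36-fold lower (standard error 0.0987, 95% interval -0.68 to -0.21), with a limma adjusted p of 0.246. With siRNA 1 alone it was -0.54, or 1.46-fold lower (standard error 0.114, limma adjusted p = 0.187). With the replicate number as a block, Med21 passed for siRNA 1 (limma adjusted p = 0.0344), as the 1 member that did, where 1.21% of all genes passed. Over all alternatives tried, its adjusted p for siRNA 1 ran from 0.0344 to 0.995. Without siRNA 1 replicate 2 the change was -0.46. With siRNA 2 the change was -0.34 (limma adjusted p = 0.778), and the siRNAs differed by 0.20 (95% interval -0.07 to 0.47).

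The partner of Med21 in the hinge, Med7, read 9.68 and 9.58 in control, 9.55 and 9.49 with siRNA 1, and 9.57 and 9.42 with siRNA 2. Its arrays did not overlap either, but the change was -0.12 (limma adjusted p = 0.686). Med10, another middle subunit, was at -0.11 (limma adjusted p = 0.674), with control arrays of 10.70 and 10.60 and knockdown arrays from 10.51 to 10.57. Med4, Med9, Med19, Med26 and Med31 lay between -0.04 and 0.02. Med4 alone among the members had a second, dimmer probe set, whose change of -0.18 compares with -0.04 for the brighter one.

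Med14, the scaffold, read 11.33 and 11.41 in control, 11.24 and 11.24 with siRNA 1, and 11.42 and 11.40 with siRNA 2. Its siRNA 1 arrays were below both controls and its siRNA 2 arrays were not, with changes of -0.14 (limma adjusted p = 0.482) and 0.04 (limma adjusted p = 0.999). The difference between the siRNAs was 0.17 (limma adjusted p = 0.723).

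In the head, which holds the subunits closest to the polymerase, 5 of 7 members were below control and the changes ran from -0.14 to 0.07. Med6 read 11.57 and 11.44 in control, 11.43 and 11.29 with siRNA 1, and 11.37 and 11.38 with siRNA 2, so every knockdown array was below both controls, the nearest only just. Its change was -0.14 (limma adjusted p = 0.663). Med18 was at -0.10 (limma adjusted p = 0.76) and Med11 at 0.07 (limma adjusted p = 0.797), both with overlapping arrays. Med8, Med17 and Med20 lay from -0.08 to -0.07, and Med22 at 0.05.

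In the tail, Med15, a target of several activators, read 11.18 and 11.19 in control, 11.01 and 11.01 with siRNA 1, and 10.88 and 11.04 with siRNA 2. All knockdown arrays were below both controls, and the change was -0.20 (standard error 0.0741, 95% interval -0.38 to -0.03, limma adjusted p = 0.514). Med27 was at -0.11 (limma adjusted p = 0.728) and Med28 at -0.09 (limma adjusted p = 0.751), both with overlapping arrays. The other 6 tail members lay from -0.06 to 0.05. Of these, Med23 read 10.59 on both control arrays and 10.44 to 10.58 on the knockdown arrays, which do not overlap but lie close.

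Each siRNA was also set against the same 2 control arrays, so the results of the siRNAs are not independent. With siRNA 1, 0 of 33 members passed without the block, where 0.0702% of all genes passed. At an unadjusted p under 0.05, 5 members were found (15.2%, against 12.1% of all genes), 21 lay below control (63.6%, against 44.5%), and the median change was -0.06. The siRNA 1 arrays did not overlap control for 17 members (51.5%, against 43.4%). With siRNA 2, 0 of 33 members passed, as did 0% of all genes. At an unadjusted p under 0.05, 3 members were found (9.09%, against 5.25%), 24 lay below control (72.7%, against 52.8%), and the median was -0.07. The siRNA 2 arrays did not overlap control for 14 members (42.4%, against 35.8%). With the replicate number as a block, 0 members passed for siRNA 2, where 0.13% of all genes passed.

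Leaving out siRNA 1 replicate 1 made 2 members pass for siRNA 1 (6.06%), where 437 of all genes passed (2.19%). These were Cdk19 (limma adjusted p = 0.0488) and Ccnc (limma adjusted p = 0.0498). Over all alternatives their adjusted p for siRNA 1 reached 0.995. The group is then the second array alone, the one that stood apart, assumed to vary like the other groups. Without that second array, 0 members passed and the median was -0.01. Between siRNA 2 and siRNA 1, 0 of 33 members passed, as did 0% of all genes, and 2 had an unadjusted p under 0.05 (6.06%, against 6.9%), Med9 and Ccnc. The median difference between the siRNAs was 0.01, and 15 members (45.5%) were lower with siRNA 2, against 58.1% of all genes. The arrays of the siRNAs did not overlap for 12 members (36.4%, against 35.1%). With the block, 0 members passed here, where 0.0752% of all genes did.

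**Figure D3:**
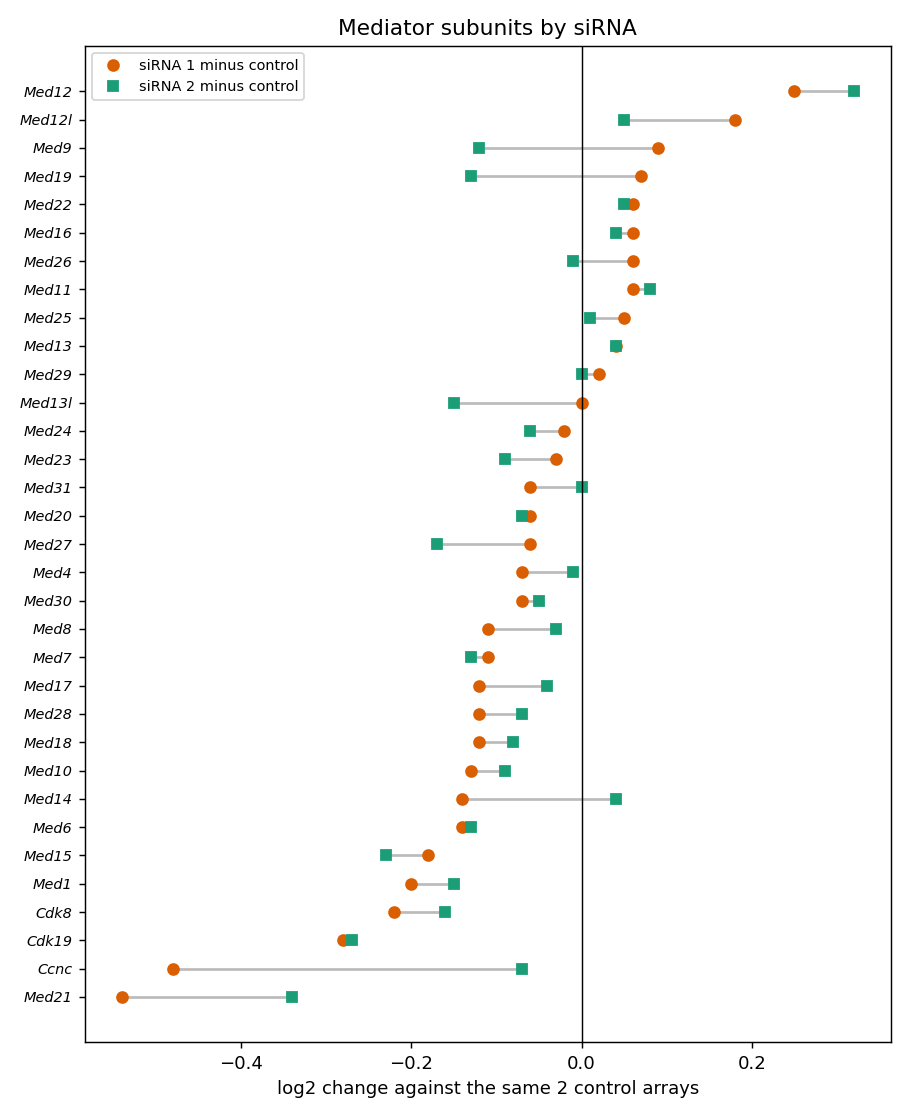
Log2 change of each Mediator subunit (y axis, sorted by siRNA 1) with siRNA 1 (circles) and siRNA 2 (squares), each against the same 2 control arrays (x axis). Med21 is lowest with both, at -0.54 and -0.34, and Ccnc is furthest apart, at -0.48 and -0.07.

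The members also moved with the replicate number. Within groups, replicate 2 minus replicate 1 had a median of -0.08 over the members in control, against -0.01 for all genes. In control 24 of 33 members were lower in replicate 2, as were 52.6% of all genes. The median difference was -0.03 with siRNA 1 and -0.05 with siRNA 2, against 0.04 and 0.03 for all genes. Lower in replicate 2 were 24 members with siRNA 1 and 20 with siRNA 2, against 41.6% and 42% of all genes. Compared within replicate number, the median member lay below control in every case. It was at -0.06 with siRNA 1 and -0.07 with siRNA 2 in replicate 1, and at -0.05 and -0.06 in replicate 2. The replicates of a group thus differed by about as much as the groups.

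Markers of other cell types were read on the same arrays. The mean of the 12 stem cell markers was 12.22 to 12.32 in control, 11.97 to 12.10 with siRNA 1, and 11.99 to 12.11 with siRNA 2. Over both siRNAs 11 of the 12 lay below control (91.7%, against 47.7% of all genes). Of the 12, 5 had an unadjusted p under 0.05 (41.7%, against 8.72%), and 0 passed, where 0.0702% of all genes did. With the replicate number as a block, 2 fell over both siRNAs, Klf4 (-0.78, limma adjusted p = 0.134 without and 0.018 with the block) and Esrrb. For siRNA 1 the block gave 3, with Zfp42 added (-0.47, limma adjusted p = 0.246 without and 0.0421 with it), and for siRNA 2 it gave 1, Klf4. With the block, 0.341% of all genes passed over both siRNAs, 1.21% for siRNA 1 and 0.13% for siRNA 2. The 10 extraembryonic endoderm markers averaged 8.03 to 8.40, 8.20 to 8.72 and 8.18 to 8.45, with 7 of 10 above the median gene level. The 10 trophoblast markers averaged 8.14 to 8.21, 8.37 to 8.42 and 8.16 to 8.29, with 8 of 10 above it. The 10 fibroblast markers averaged 6.86 to 6.96, 6.90 to 7.08 and 6.93 to 7.08, with 3 of 10 above it, and the 9 neural markers measured averaged 7.79 to 7.80, 7.71 to 7.77 and 7.72 to 7.80, with 6 above it. Over both siRNAs, 9 endoderm, 9 trophoblast, 8 fibroblast and 3 neural markers lay above control. The shares below control were 10%, 10%, 20% and 66.7%, against 47.7% of all genes. At an unadjusted p under 0.05, 0 endoderm, 3 trophoblast (30%) and 2 fibroblast markers (20%) were higher, as 3.86% of all genes were. At this p 1 neural marker was lower (11.1%), as 4.86% of all genes were. Of these markers 0 passed without the block, and with it 1 endoderm marker was higher for siRNA 1. The part of the markers in the Mediator values was not tested.

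The machinery that works with Mediator was read from lists of cohesin, RNA polymerase II, initiation, elongation, coactivator and nuclear receptor genes. Over both siRNAs, 0.0702% of all genes passed and 47.7% lay below control, with a median of 0.01. The cohesin list held 11 genes, with the loader, regulators of cohesin and Ctcf counted. Of these, 0 passed over both siRNAs, 9 lay below control (81.8%), and the median was -0.04. Rad21, a cohesin ring subunit, was at -0.13 (limma adjusted p = 0.645), as was Pds5a, a cohesin regulator (limma adjusted p = 0.649). Wapl, which releases cohesin, was at -0.11 (limma adjusted p = 0.753). Of 13 genes with RNA polymerase II symbols (Polr2a to Polr2m), 0 passed and 10 lay below control (76.9%), with a median of -0.07. Polr2k, a small subunit shared by the nuclear polymerases, read 8.49 and 8.24 in control and 7.88 to 8.08 on the knockdown arrays. All knockdown arrays were below both controls, at -0.35 (limma adjusted p = 0.375). Polr2e was at -0.16 and Polr2g at -0.14 (limma adjusted p = 0.666 for each).

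Of the 32 general initiation factors measured, 0 passed, where 0.0702% of all genes did. Of them 28 lay below control (87.5%, against 47.7% of all genes), with a median of -0.07. The TFIID subunits Taf13, Taf11 and Taf1 were at -0.39, -0.22 and -0.17 (limma adjusted p = 0.546, 0.546 and 0.559). Without control replicate 1, Taf13 was at -0.19 and Taf11 at -0.13, and without control replicate 2 they were at -0.60 and -0.31. Taf13 read 9.94 and 9.53 in control, 9.37 and 8.98 with siRNA 1, and 9.62 and 9.40 with siRNA 2, with overlap. Of the 21 pause release and elongation factors measured, 0 passed and 13 lay below control (61.9%), with a median of -0.02. Aff1, a scaffold of the super elongation complex, reached 10.17 on the higher control array and 9.61 to 9.76 on the knockdown arrays, all below both controls. Its change was -0.39 (limma adjusted p = 0.227), and that of its paralogue Aff4 was -0.16 (limma adjusted p = 0.577). Larp7, which holds the elongation kinase in an inactive particle, was at -0.24 (limma adjusted p = 0.513), with 10.72 and 10.52 in control, 10.18 and 10.05 with siRNA 1, and 10.67 and 10.63 with siRNA 2. Its siRNA 1 arrays were below control and its siRNA 2 arrays were between the controls. Under the replicate block, Larp7 and Taf13 passed for siRNA 1 (limma adjusted p = 0.0443 and 0.0413), where 1.21% of all genes passed. Without the block their limma adjusted p for siRNA 1 was 0.169 and 0.328.

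Among 16 nuclear receptor coactivators, 1 fell, Ncoa3 itself, the target, where 0.0702% of all genes passed. Of the 16, 9 lay below control (56.2%, against 47.7% of all genes). The median was -0.00, and Kat2b and Ncoa7 were at -0.39 (limma adjusted p = 0.62) and -0.18 (limma adjusted p = 0.633). Among 14 nuclear receptors of stem cells, 9 lay below control (64.3%), the median was -0.05, and 1 fell, Nr0b1. The unadjusted p was under 0.05 for 5 of them, all lower (35.7%, against 8.72% of all genes). Nr0b1, an orphan receptor of the pluripotency network, read 13.18 and 13.05 in control, 12.23 and 12.18 with siRNA 1, and 12.30 and 12.26 with siRNA 2. It fell by 0.87 (standard error 0.0727, limma adjusted p = 0.0347), and its call was lost under the same alternatives as that of Ncoa3, with an adjusted p from 0.000564 to 0.784. Esrrb, the estrogen-related receptor of naive stem cells, read 11.99 and 11.82 in control, 11.48 and 11.35 with siRNA 1, and 11.48 and 11.31 with siRNA 2. Its change was -0.50 (standard error 0.09), with a limma adjusted p of 0.186, or 0.0386 with the replicate number as a block and 0.038 to 1 over the alternatives. Rxra, a partner of many nuclear receptors, was at -0.32 (limma adjusted p = 0.279). The changes of Nr0b1, Esrrb and Rxra are larger in size than that of Med1, the Mediator subunit that receptors bind, at -0.18. These receptors were named for having the smallest p of the 14, so the comparison rests on that selection. The median of all 14 receptors, -0.05, is smaller in size than the change of Med1.

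**Figure D4:**
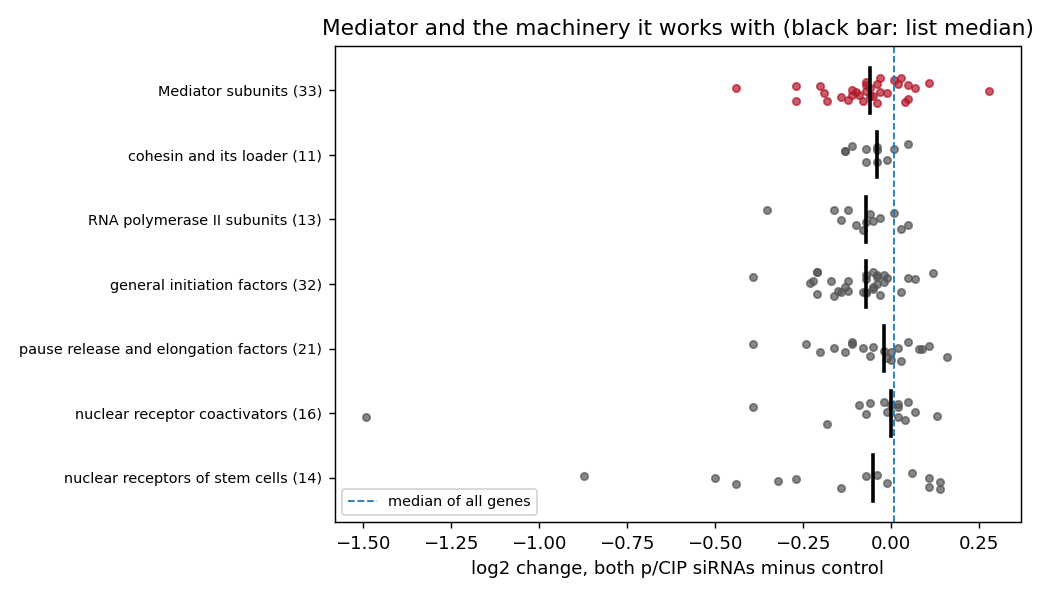
Log2 change of each gene, both p/CIP siRNAs minus control (x axis), for the 33 Mediator subunits and 6 lists of genes that work with Mediator (y axis, number measured in parentheses). Points are genes, black bars list medians and the dashed line the median of all genes, 0.01. The list medians lie from -0.07 to -0.00, and the lowest points are Ncoa3 at -1.49 and Nr0b1 at -0.87.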

How the data were processed

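RNA from 6 arrays of E14 cells was analysed from the deposited log2 values of 35556 probe sets. Their range, 2.69 to 14.6, is the basis for taking the log as base 2. The submitters' processing notes name Partek, with no version or steps. By GEO's platform annotation, 21789 probe sets had 1 symbol, 1621 had several and stayed unnamed, and 12146 were not listed. Probe sets shared by Usp49 and Med20, and by Cdk8 and Rn28s1, were among those left out. The number of arrays limits the precision, and no detection calls were used.

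All 3 groups were fitted together in limma 3.58.1 (R 4.3.3; lmFit, eBayes), with no filter on dim genes. Called genes had a two-sided Benjamini-Hochberg adjusted p under 0.05 over 19938 genes. Errors are standard errors. The fit was tested on simulated data, with changes far larger than those of the members and with no link between arrays of equal replicate number. That test does not show whether changes as small as those of the members would be found. The exact permutation test was checked against scipy 1.17.1.

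Deviations from group means of arrays with equal replicate numbers correlated at 0.464, 0.407 and 0.461 over genes. The main fit used group means only and ignored this pairing. The replicate number entered as a block only where the text says so. The pairing comes from the data, not the labels, and is weak with 2 arrays a group.

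Named with values were Ncoa3, Med1, Med14, the kinase module, and the 3 members of smallest p (both siRNAs) in each other module and partner list, plus any called there. Other genes were named after their values were seen. Members and lists were chosen with earlier results of these data known. Alternatives were the replicate or array code as a block, normalization, dim-gene filter, probe sets, moderation, module placement and each array left out. Promoters are RefSeq's.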

Additional observations from a re-analysis of the deposited data

Results flagged for a closer look

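Med9, a subunit of the middle module, is listed because its arrays lay on opposite sides of control with the 2 siRNAs, although it passed no test. It read 9.24 and 9.16 in control, 9.25 and 9.33 with siRNA 1, and 9.11 and 9.05 with siRNA 2. Both siRNA 1 arrays lay above both controls and both siRNA 2 arrays below them. The changes were 0.09 with siRNA 1 (95% interval -0.10 to 0.29) and -0.12 with siRNA 2 (95% interval -0.31 to 0.08), and both intervals include 0. The test of the difference itself, siRNA 2 minus siRNA 1, gave -0.21 (standard error 0.0818, 95% interval -0.40 to -0.01), with an unadjusted limma p of 0.0383 and a limma adjusted p of 0.718. The adjusted p ran from 0.19 to 1 over the alternatives tried. Groups of 2 arrays were too small to test for a sample far from the others.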

How the results depend on the processing

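Over 2 arrays a group, few calls were stable. Genes called for both siRNAs went from 14 to 68 with the replicate block, 71 with trend and robust moderation, and 0 with the array code as a block, with all probe sets tested or without moderation. For siRNA 1 they went from 14 to 241 with the replicate block, 150 with trend and robust moderation, 39 after cyclic loess, 26 with array medians aligned, and 0 with the array code block, all probe sets, only the groups compared or no moderation. For siRNA 2 they went from 0 to 26 with the replicate block, 17 with trend and robust moderation, 10 with only the groups compared, 2 after quantile or cyclic loess normalization and 1 with medians aligned. Between the siRNAs they went from 0 to 15, 23 and 1 with the replicate block, trend and robust moderation, and medians aligned. Leaving out each array gave 0 to 37 for both siRNAs, 0 to 437 for siRNA 1, 0 to 10 for siRNA 2 and 0 to 2 between them. Mediator members called for siRNA 1 went from 0 to 1 with the replicate block and ranged from 0 to 2 with each array left out. The block changed no other Mediator call. The tail median went from -0.06 to -0.03 after quantile and -0.02 after cyclic loess normalization, and ranged from -0.08 to 0.01 with each array left out, as the head median did from -0.16 to -0.01. The kinase median ranged from -0.13 to -0.02. Of 37 gene changes recomputed for both siRNAs, 22 moved by over 1.5 times with 1 array left out, among them Cdk19 (-0.42 to -0.12), Ccnc (-0.38 to -0.17), Polr2k (-0.48 to -0.22), Taf13 (-0.60 to -0.19) and Kat2b (-0.56 to -0.22).

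Of the log2 changes recomputed, 39 turned sign, 1538 kept direction and call, 13 passed newly and 22 no longer passed. The cause was not tested. Those that turned were not called. After quantile normalization, Med9 was at 0.02 for both siRNAs, and between the siRNAs Med13 was at -0.03, Cdk19, Med6, Med18 and Med11 at -0.01, and Med10 at -0.00. After cyclic loess, Med9 was at 0.02, and between the siRNAs Med13 was at -0.03, Med6 at -0.02, and Cdk19 and Med11 at -0.01. With medians aligned, Med13l was at -0.01 for siRNA 1 and Ncoa3 at 0.02 between the siRNAs. With each array left out, Med9 ranged from -0.05 to 0.03 for both siRNAs. For siRNA 1, Med13l ranged from -0.06 to 0.06, Cdk19 from -0.57 to 0.02 and Med27 from -0.13 to 0.01. For siRNA 2, Med14 ranged from -0.00 to 0.07, Med12l from -0.01 to 0.12, Ccnc from -0.17 to 0.03 and Med18 from -0.17 to 0.01. Between the siRNAs, Med13 ranged from -0.03 to 0.04, Cdk19 from -0.29 to 0.30, Med6 from -0.06 to 0.08, Med18 from -0.03 to 0.11, Med11 from -0.02 to 0.06, Med7 from -0.10 to 0.05, Med15 from -0.13 to 0.03, Med28 from -0.03 to 0.12 and Ncoa3 from -0.11 to 0.11. For both siRNAs, testing only the groups compared is the same fit and was not run apart.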
